A study of Mus musculus with 4 samples.

Results

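Binding sites of Tfcp2l1, a CP2-family transcription factor known from the naive pluripotency network, were described at the histone genes of mouse embryonic stem cells. The members were all protein-coding RefSeq genes of GRCm38 whose symbol starts with H1f, H2ac, H2bc, H3c or H4c and a digit, or with the older Hist prefixes. The rule took 67 of 21887 protein-coding genes: 10 of class H1, 17 of H2A, 16 of H2B, 12 of H3 and 12 of H4. All are in the newer naming. Of these, H1f0, H1f7, H1f8 and H1f10 lie alone and are not replication-dependent genes, so the label holds for 63 members at most.

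The cells were wild-type embryonic stem cells, untreated, grown with PD0325901 (1 µM, against MEK), CHIR99021 (3 µM, against GSK3) and LIF (1000 units/mL), the combination known as 2i with LIF. Chromatin immunoprecipitation with sequencing (ChIP-seq) used 10 µg of a custom antibody to mouse Tfcp2l1, and each of 2 repeats had 1 ChIP and 1 input library. Nothing in the labels says that the repeats were separate cultures, so their spread may be technical. The authors called 57614 peaks in repeat 1 and 51610 in repeat 2, from 19353473 and 22555373 filtered ChIP tags. Fold enrichment is their ratio of ChIP tags at a peak's summit to the local background, and it was used to describe and rank peaks within each list. In what follows a pair of values is repeat 1 and then repeat 2, a shared peak is a repeat 1 peak that overlapped a repeat 2 peak by at least 1 bp, and distances are from its summit in repeat 1.

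Replication-dependent histone genes supply the core histones H2A, H2B, H3 and H4 and the linker histone H1 when DNA is copied. They are short, mostly lack introns, and lie in clusters where an H2A and an H2B gene often sit head to head and share a promoter. Their mRNAs end in a stem-loop in place of a poly(A) tail, and their levels rise in S phase.

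Of the 67 members, 50 had a shared peak within 10 kb (74.6%, exact 95% interval 62.5% to 84.5%), where 64.5% of all protein-coding genes had one. Another 11 members had a peak of 1 repeat only, and 6 had no peak of either repeat. Each repeat alone gave 55 members (background 71.3%) and 56 members (68.1%). Within 1 kb the count was 29 of 67 (43.3%) beside a background of 51.5%. Measured from the nearer gene end in place of the whole gene, the 10 kb count was again 50, beside 59.8%. For 22 members (32.8%) a shared peak of at least 20-fold in both repeats lay within 10 kb, beside 30.4% of all genes. For 34 members (50.7%) there were 2 or more shared peaks within 10 kb, beside 42.9%. These shares lie near the background and no test over genes was made. Members share peaks as well: a shared peak had a median of 4 members within 10 kb and up to 7, so the intervals treat as independent what is not.

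Per Mb of sequence the peaks were dense. The 10 kb windows around the members covered 535 kb and held 45 peaks of repeat 1 and 37 of repeat 2, of which 31 and 31 were shared (68.9% and 83.8%, beside 76.1% and 84.8% over the whole lists). That made 58.0 shared peaks per Mb, where the same windows around all protein-coding genes had 24.96 per Mb. The 535 kb hold 67 short genes that lie close together, whereas the windows of all 21887 genes cover 1288 Mb. Those windows held 32156 shared peaks and the members' windows 31, so rates per Mb are not rates per gene. The median strength of the members' shared peaks was near that of all sites. It was 15.4-fold and 12.3-fold, against 15.5-fold and 11.8-fold for all 43851 shared peaks. Repeat 1 had the higher fold at 26 of the 31, as it had at 77.3% of all shared peaks. Across the 31 peaks, which share their libraries, Spearman's rho between repeats was 0.849. The summits lay a median of 20 bp apart between repeats.

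**Figure D1:**
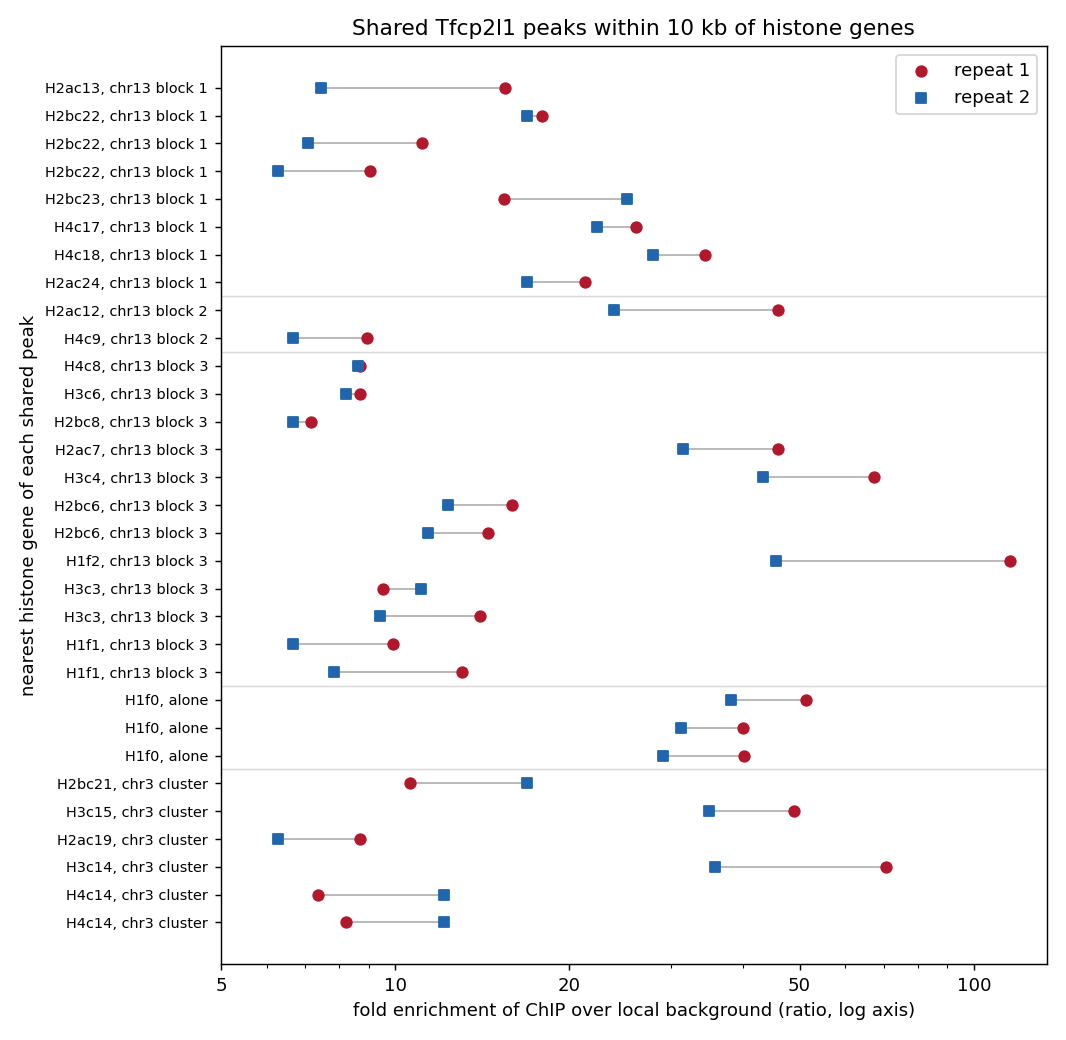
Fold enrichment (log axis) of the 31 shared peaks within 10 kb of histone genes, one row per peak, grouped by block and named by the nearest histone gene. Circles are repeat 1 and squares repeat 2; the peak beside H1f2 is the highest in both, at 115-fold and 45.5-fold, and 26 of the 31 are higher in repeat 1.

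By class, 11 of 12 H3 genes had a shared peak within 10 kb (91.7%), 14 of 17 H2A genes (82.4%), 12 of 16 H2B genes (75.0%), 8 of 12 H4 genes (66.7%) and 5 of 10 H1 genes (50.0%). The exact intervals of all classes overlapped. At the promoter itself, taken as the 300 bases from 250 before to 50 after the gene start, 19 of the 62 members with a promoter sequence were overlapped by a shared peak (30.6%), where 24.9% of all protein-coding genes were. A shared summit fell inside that window for 7 of the 62 (11.3%), beside 9.70% of all genes. The 7 were H2ac7, H2bc7, H2ac23, H2bc23, H4c9, H4c17 and H4c18, so no H1 or H3 promoter window held a shared summit. Their summits are not all separate: the windows of H2ac7 and H2bc7 overlap and hold the same one, as do those of H2ac23 and H2bc23. The windows of H2ac23, H2bc23, H4c17 and H4c18 are also mostly copied elsewhere.

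**Figure D2:**
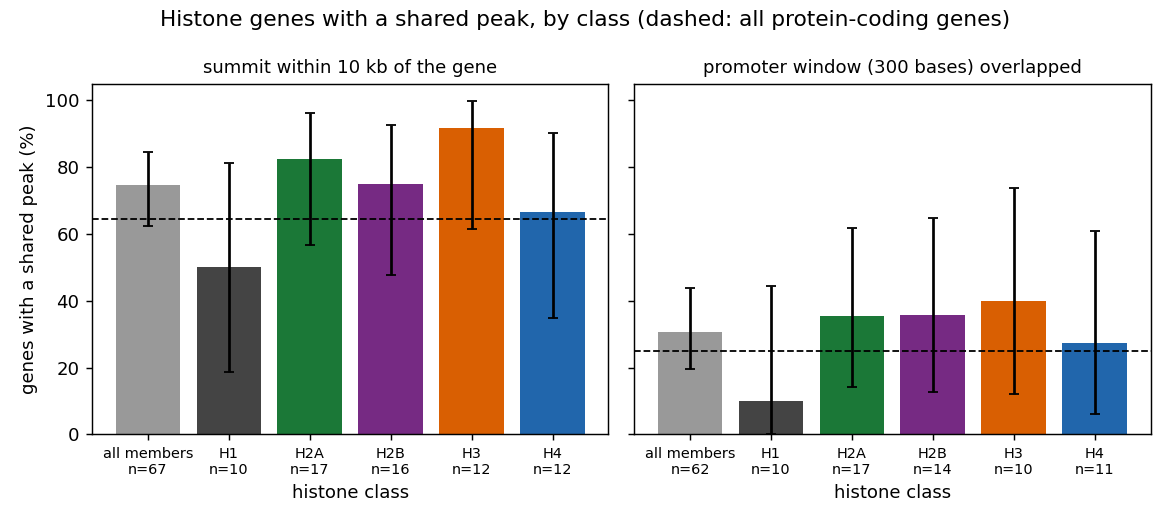
Percentage of histone genes with a shared peak, for all members and by class, with the summit within 10 kb of the gene (left) or the peak over the 300-base promoter window (right). Bars are percentages with exact 95% intervals, and dashed lines are the values of all protein-coding genes, 64.5% and 24.9%; all class intervals on each side overlap.

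Among H4 genes, which encode the partner of H3 in the core of the nucleosome, the promoter sites fell on 3 of 11 genes with a promoter sequence. The peak at H4c18 had 34.3-fold and 27.9-fold enrichment from 81 and 79 tags, with its summit 12 bp before the start. The peak at H4c17 had 26.1-fold and 22.4-fold from 63 and 64 tags, with its summit 25 bp before the start. The peak at H4c9 was weaker, with 8.94-fold and 6.67-fold from 36 and 29 tags, and its summit lay 54 bp before the start. In each repeat the tags and folds at H4c9 were lower than at both other genes.

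The 11 H4 promoters were compared over 40 bases, from 35 before the start to 4 after its first base, since the summits at H4c17 and H4c18 fall there. The sequences are RefSeq's for GRCm38.p6, in the direction of the gene, and capitals mark a match to the CP2 dimer consensus. This consensus is a pair of half-sites 6 bases apart, each made of C, any base, a purine and G, and it was searched on both strands. It is a loose pattern, found in 59.8% of all protein-coding promoter windows.
H4c11 (chr13:21734999-21735038, plus strand): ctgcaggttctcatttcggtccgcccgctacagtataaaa
H4c12 (chr13:21750549-21750588, minus strand): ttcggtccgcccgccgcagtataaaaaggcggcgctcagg
H4c17 (chr13:21811711-21811750, plus strand): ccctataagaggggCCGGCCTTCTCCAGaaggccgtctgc
H4c18 (chr13:21832193-21832232, minus strand): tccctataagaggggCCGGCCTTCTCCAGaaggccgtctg
H4c9 (chr13:22041358-22041397, minus strand): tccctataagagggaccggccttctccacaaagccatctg
H4c8 (chr13:23531009-23531048, plus strand): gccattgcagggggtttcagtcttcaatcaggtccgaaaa
H4c6 (chr13:23551664-23551703, minus strand): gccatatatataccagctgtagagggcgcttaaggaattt
H4c4 (chr13:23581533-23581572, plus strand): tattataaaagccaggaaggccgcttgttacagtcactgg
H4c3 (chr13:23698454-23698493, minus strand): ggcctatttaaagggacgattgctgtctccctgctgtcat
H4c2 (chr13:23756902-23756941, plus strand): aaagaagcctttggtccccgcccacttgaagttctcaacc
H4c1 (chr13:23761245-23761284, minus strand): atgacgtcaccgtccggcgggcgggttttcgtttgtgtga
The same 14 capital bases stand in H4c17 and H4c18. The repeat 1 summit fell inside them at H4c18 and just before them at H4c17. In repeat 2 the summits lay 32 bp before the H4c18 start and 29 bp before that of H4c17, ahead of these bases in both genes. At H4c9 the summits lay 54 bp and 114 bp before the start, whereas its like stretch begins 20 bases before it. H4c9 has these bases with 1 difference, G14C, counted from the first capital base of H4c17, so it is in lower case. The closest stretch in each of the other 8 H4 windows differed at 4 to 6 of the 14 bases. The 3 genes with these bases at 1 mismatch or fewer were the 3 with a shared peak over the promoter, and this likeness was noticed after the peaks were known. H4c14, the only H4 member on chromosome 3, had no promoter sequence to compare. Shared peaks of 7.37-fold and 8.21-fold in repeat 1 lay 252 bp and 945 bp from it, both over 1 repeat 2 peak of 12.2-fold.

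H4c17 and H4c18 are near-identical copies, which limits both values. Of the 266 stretches of 35 bases in the H4c17 promoter window, 251 also occur in that of H4c18, and the tags were 35 bp long. The sources used here do not say how tags with several matches were placed, and the part of this in the peaks was not tested. For H4c9 only 4 of 266 such stretches occurred in another promoter window.

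H2A and H2B genes encode the dimers that flank the H3 and H4 core, and 9 pairs of them had head-to-head starts within 400 bp. A peak of at least 1 repeat lay over 1 or both starts of 8 of the 9 pairs, and a shared peak over those of 4. Of the 691 head-to-head pairs of all protein-coding genes, 47.9% and 34.6% had them. The pair of H2bc7 and H2ac7 had the strongest peak, with 45.9-fold and 31.4-fold from 121 and 109 tags (chromosome 13, 23573749 to 23574886). Its summit fell between the starts, 58 bp before that of H2ac7. The pair of H2ac22 and H2bc22 had 17.96-fold and 16.9-fold, that of H2bc23 and H2ac23 had 15.4-fold and 25.1-fold, and that of H2ac8 and H2bc8 had 7.15-fold and 6.67-fold.

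Of the other pairs, 4 had a peak of 1 repeat. H2ac15 and H2bc15 had one in repeat 1 alone (12.6-fold), as had H2ac12 and H2bc12 (9.66-fold). H2bc13 with H2ac13 (6.92-fold) and H2ac11 with H2bc11 (7.46-fold) had one in repeat 2 alone. In these last pairs the peak covered the H2B start and not the H2A start. H2bc1 and H2ac1, which encode testis forms, were the pair without a peak over the starts.

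The promoter between H2bc7 and H2ac7 is shown because it held the strongest summit inside any member's promoter window. It is written in the direction of H2ac7, GRCm38.p6, chr13:23574131-23574430, plus strand, with the CP2 dimer match in capitals.
H2ac7: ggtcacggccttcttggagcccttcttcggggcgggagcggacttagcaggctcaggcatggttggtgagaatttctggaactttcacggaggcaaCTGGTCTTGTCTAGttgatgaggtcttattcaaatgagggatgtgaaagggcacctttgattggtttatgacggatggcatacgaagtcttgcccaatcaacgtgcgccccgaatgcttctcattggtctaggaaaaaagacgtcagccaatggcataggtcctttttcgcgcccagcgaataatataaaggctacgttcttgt
The match began 154 bases before the H2ac7 start, and the summit was at base 193 of the 300, outside the match. The window also held 4 copies of CCAAT, counted on both strands, and 1 TATAAA. In this window 6 of the 266 stretches of 35 bases occurred in another promoter window. In contrast, 266 of 266 at H2bc23 and 239 of 266 at H2ac23 occurred elsewhere, mostly in the window of H4bc24, which lies beside H2ac24. The peak 302 bp from H2ac24 (21.3-fold and 16.9-fold) had its summit inside H4bc24. Which of these copies the tags came from was not tested.

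Of the 14 H2B genes with a known start, 8 had a summit of either repeat within 250 bp of it (57.1%), beside 21.6% of all 17492 protein-coding genes with a start. For 7 of them it lay downstream, by 23 to 101 bp (50% of the 14), beside 11.1% of all genes. H3 genes had a downstream summit in 3 of 10 cases, and H1, H2A and H4 genes in none of 10, 17 and 11. Each of the 7 H2B genes is in a head-to-head pair, so the same summit lies before the start of its H2A partner. The H2A count is therefore not separate from the H2B count. These positions were looked at after the peaks were known, and no test over genes was made. In repeat 1 the position was 95 bp for H2bc22, 95 bp for H2bc12, 93 bp for H2bc8 and 100 bp for H2bc15. In repeat 2 it was 101 bp for H2bc22, 78 bp for H2bc11, 73 bp for H2bc13 and 45 bp for H2bc8. Only those of H2bc22, H2bc8 and H2bc23 were shared, and H2bc7 was the exception, with summits 116 bp and 134 bp before its start. Promoter sequence ends 50 bases after the start, so the bases under most of these summits were not read here.

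**Figure D3:**
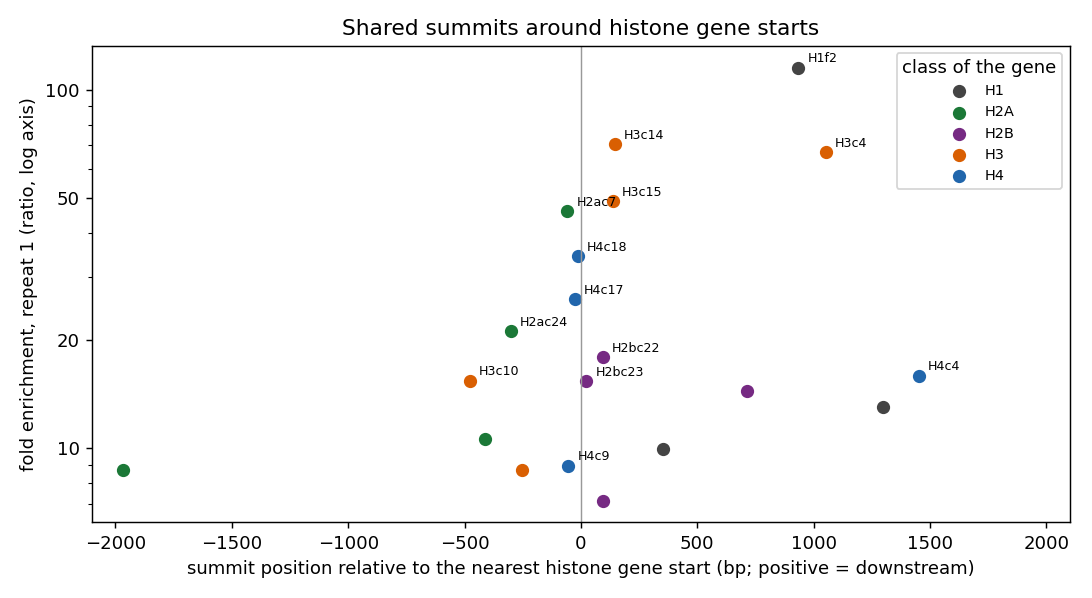
Position of shared summits relative to the nearest histone gene start (bp, positive downstream) against fold enrichment in repeat 1 (log axis), for summits within 2 kb; colour is the class of the gene. The summits at H4c17, H4c18 and H2ac7 lie 25, 12 and 58 bp before a start, whereas those of H1f2 and H3c4 lie 934 bp and 1052 bp after it.

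H3 genes were the nearest members to 3 of the 5 shared peaks with the highest fold in repeat 1. The peak beside H3c14 (chromosome 3, 96245985 to 96247388) had 70.5-fold and 35.7-fold enrichment, from 299 and 155 tags. That beside H3c15 (96238390 to 96239916) had 48.9-fold and 34.9-fold, from 303 and 160 tags. Their summits lay 145 bp and 137 bp after the starts, inside the genes. The genes are mirror copies on opposite strands: 216 of the 266 stretches of 35 bases in either promoter window occur in the other, and whether the peaks are separate sites was not tested.

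The H3c14 promoter is shown to give the sequence before that summit. It is on the plus strand of GRCm38.p6, chr3:96246435-96246734, with CP2 dimer matches in capitals.
H3c14: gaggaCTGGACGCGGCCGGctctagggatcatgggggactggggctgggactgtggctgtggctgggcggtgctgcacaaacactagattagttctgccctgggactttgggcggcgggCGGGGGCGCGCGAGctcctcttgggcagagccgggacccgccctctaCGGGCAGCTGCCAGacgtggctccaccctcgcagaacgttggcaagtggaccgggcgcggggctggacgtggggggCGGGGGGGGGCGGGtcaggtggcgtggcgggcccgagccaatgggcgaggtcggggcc
It held 4 stretches that match, 1 of them on both strands, and 1 CCAAT. The summit itself is beyond the window.

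The remaining H3 peak of that strength lay behind H3c4 (chromosome 13, 23576289 to 23577403). It had 67.2-fold and 43.2-fold enrichment from 184 and 159 tags, and the summit was 549 bp past the end of the gene. This peak and that of H2ac7 each had 7 members within 10 kb. H3c6 had a weak shared peak 253 bp before its start (8.70-fold and 8.24-fold). H3c10 had one 476 bp before its start, of 15.5-fold and 7.46-fold. H3c3 had 2 shared peaks past its end, 1755 bp (14.01-fold and 9.42-fold) and 2740 bp away (9.53-fold and 11.1-fold). H3c13 had a peak 91 bp after its start in repeat 1 alone (9.93-fold), and H3c8 had one 102 bp before its start in repeat 2 alone (5.89-fold). H3c7, with only a repeat 2 peak within 10 kb, was the H3 gene without a shared peak.

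The strongest peak of all lay beside H1f2, a linker histone gene (chromosome 13, 23739107 to 23740364). It had 326 and 201 tags, which is 16.8 per 1000000 filtered ChIP tags (exact 95% interval 15.1 to 18.8, counting error only) in repeat 1 and 8.91 (7.72 to 10.2) in repeat 2. Its enrichment was 115-fold and 45.5-fold, above 99.2% and 95% of each list. The summit lay 210 bp past the end of the gene in repeat 1, and 22 bp from that of repeat 2. The ratio of the folds was 2.54, the highest of the 31, where the median over all shared peaks was 1.31 and 3.87% reached 2.54. The tag rates differed 1.89 times, with separate intervals. Such separate intervals were found at 7 of the 31 shared peaks, 5 of them higher in repeat 1. The ratio was larger at H3c14 (2.25), H3c15 (2.21) and H2ac13 (2.20) than at H1f2. Those higher in repeat 2 both lay near H4c14 and were set against the same repeat 2 peak of 79 tags. That at H2bc22 was set against a repeat 2 peak of 50 tags, leaving out another of 21 tags that it overlapped. In both repeats the H1f2 peak stood above every other shared peak of the members.

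Other H1 genes differed widely. H1f1 had a shared peak inside the gene (9.93-fold and 6.67-fold) and another 555 bp beyond it (13.04-fold and 7.85-fold). H1f3 and H1f5 had shared peaks only at 6831 bp and 6958 bp, nearer to other members. H1f4 and the testis gene H1f6 had no peak of either repeat within 10 kb. H1f0, a replacement linker histone that persists in non-dividing cells, had 3 strong shared peaks: 51.2-fold and 38.1-fold at 8228 bp, 39.96-fold and 31.2-fold at 2262 bp, and 40.1-fold and 29.0-fold at 846 bp. The last of these lay inside Gcat, the neighbouring gene. Inside H1f0 itself was a peak of repeat 1 alone (7.80-fold). H1f10 and the spermatid gene H1f7 had 1 peak each in repeat 1 alone (7.73-fold and 8.21-fold), and the oocyte gene H1f8 had none.

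The members fell into 5 blocks of 2 or more genes less than 100 kb apart, and 4 single genes. All 10 genes of the chromosome 3 cluster (50.3 kb, 6 shared peaks) and all 5 of block 2 on chromosome 13 (8.54 kb, 2 shared peaks) had a shared peak within 10 kb. Block 1 of chromosome 13 (118 kb, 8 shared peaks) had 13 of 17 (76.5%). Block 3 (233 kb, 12 shared peaks) had 21 of 29 (72.4%). The share over all protein-coding genes was 64.5%. Neighbours in a block lie near the same peaks, so their counts are not independent. Block 4, the testis pair H2bc1 and H2ac1, had only a repeat 2 peak (9.03-fold) at 2197 bp from H2ac1.

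Other sites of the blocks had their summits outside the promoter windows. H2bc6, annotated with a long body, had a shared peak inside it (14.5-fold and 11.4-fold) and another 650 bp away (15.9-fold and 12.3-fold). H2bc22 likewise had shared peaks 3404 bp (11.1-fold and 7.06-fold) and 5395 bp (9.05-fold and 6.28-fold) after its start. In the chromosome 3 cluster a shared peak lay inside H2bc21 and 410 bp before the H2ac20 start (10.6-fold and 16.9-fold), and a weak one lay 1966 bp from H2ac19 (8.70-fold and 6.28-fold). H4c8 had its nearest shared peak 4928 bp away (8.70-fold and 8.63-fold). The peaks inside H2bc6 and H2bc21 nevertheless overlapped promoter windows, those of H2bc6 and H2ac20. Each of these sites was weaker in both repeats than the H2ac7 site.

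Further members lay within 10 kb of shared peaks already described at other genes. On chromosome 3, H2ac18 had its nearest shared summit 778 bp away, H2ac21 936 bp and H2bc18 5438 bp. In block 1 the distance was 4186 bp for H3c11 and 4892 bp for H2bc14. In block 3 it was 1051 bp for H4c4, 1635 bp for H3c1, 2772 bp for H4c1 and 3447 bp for H2bc3. In the same block it was 6635 bp for H4c2, 7759 bp for H2ac10, 7801 bp for H2ac4 and 9058 bp for H3c2. All of these members thus had a shared peak by the 10 kb rule and none had a shared summit inside the gene.

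Most members without a shared peak were neighbours. In block 1 they were H4c11, H4c12, H2ac15 and H2bc15, neighbours over 19.5 kb, of which H4c11 had no peak at all. In block 3 they were H2bc9, H3c7 and H4c6 over 8.75 kb, and H1f4, H2ac6, H2bc4, H1f6 and H4c3 over 76.7 kb. H4c6, H1f4, H1f6 and H4c3 had no peak of either repeat. Over the whole 76.7 kb of the last stretch, including its parts far from any member, the lists held no summit of repeat 1 and 1 of repeat 2, a peak of 7.06-fold at H2bc4 and H2ac6. In block 2 the strongest site lay outside the genes, 7008 bp from H2ac12 (45.9-fold and 23.9-fold), while the shared peak at H4c9 was the one near a start.

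**Figure D4:**
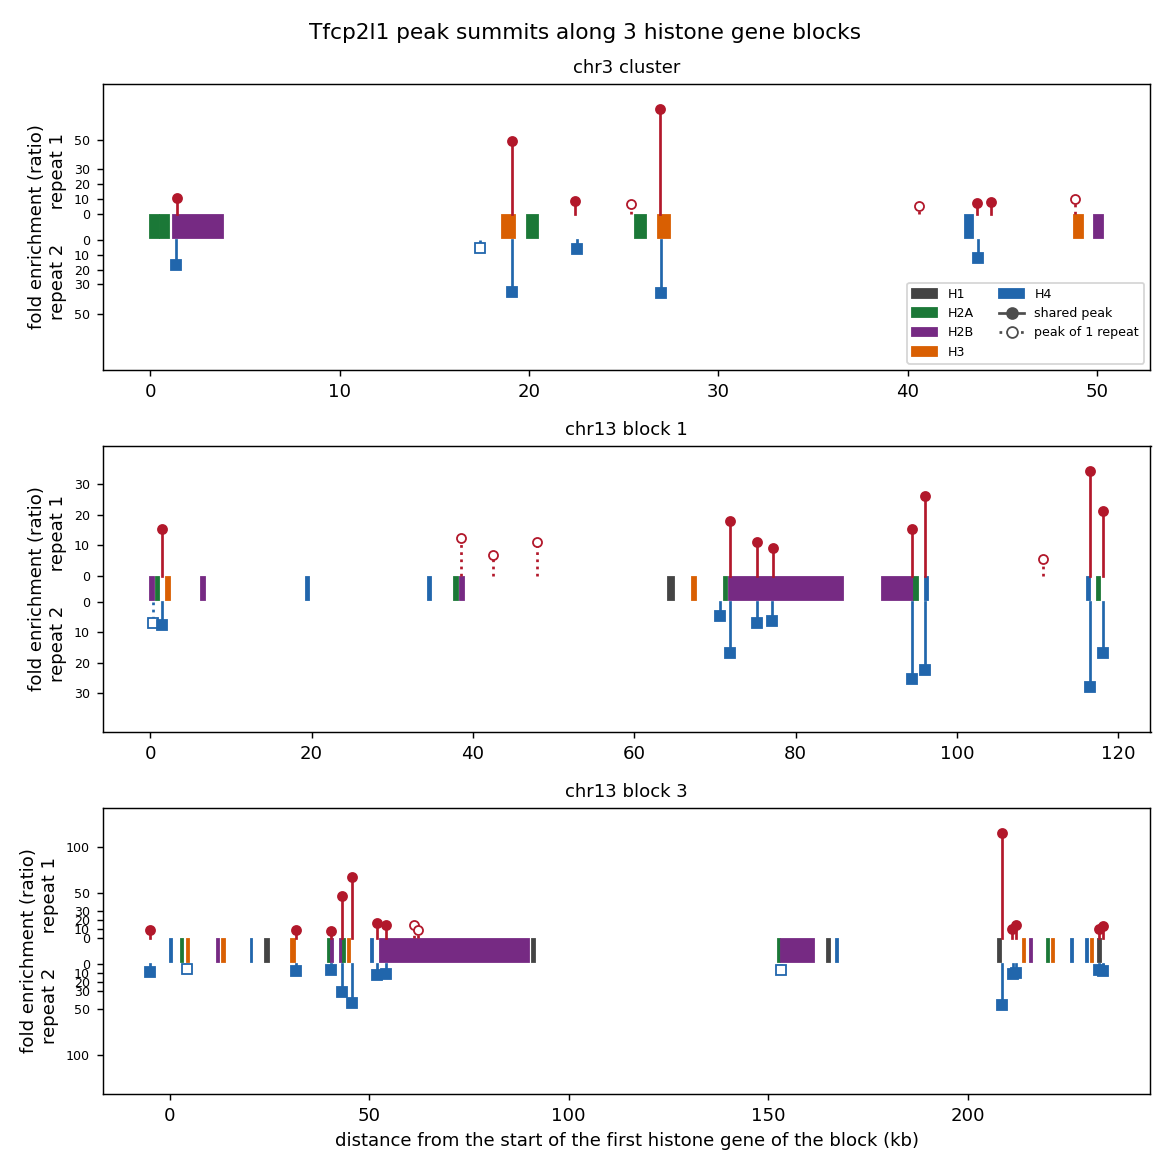
Peak summits along the chromosome 3 cluster and blocks 1 and 3 of chromosome 13, by distance from the start of the first histone gene (kb). Boxes are genes coloured by class, stems above and below are fold enrichment in repeats 1 and 2, and open symbols are peaks of 1 repeat; the stretch of block 3 from H1f4 to H4c3 has no shared peak.

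Between blocks 2 and 3 of chromosome 13, shared peaks were sparser than in the members' windows. The 1.47 Mb between them, more than 10 kb from any member, held 18 shared peaks, or 12.3 per Mb. The members' windows had 58.0 per Mb, and those of all protein-coding genes 24.96 per Mb. The other gaps between blocks were not counted in this way. Between the first and the last member of chromosome 13, outside the blocks, lay 50 other protein-coding genes, many of them Vmn1r vomeronasal receptor genes. Of these, 11 had a shared peak within 10 kb, beside 64.5% of all protein-coding genes. Hfe, an iron-regulating gene inside block 3, had none.

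The promoter windows of the classes held different motifs, which are given as a description and not as sites of binding. CCAAT, on either strand, was in all 17 H2A, all 15 H2B and all 10 H3 windows, in 7 of 10 H1 windows and in 3 of 11 H4 windows, where 38.2% of all 21263 protein-coding windows held it. TATAAA, also on either strand, was in 34 of 63 member windows (54%) and in 12.6% of all. In some windows, such as those of H2bc15 and H2ac8, it lay only on the strand opposite to the gene. ATTTGCAT, the octamer known from H2B promoters, was in 7 of 15 H2B and 6 of 17 H2A windows, counted on both strands. It was in no window of the other classes, and in 1.66% of all. It lay on the strand of the gene in the H2B windows and on the opposite strand in the H2A windows. The CP2 dimer consensus was in 19 of 63 member windows (30.2%), in 7 of the 19 that a shared peak overlapped and in 12 of the 44 others. Of all windows with a shared summit inside, 82.3% held it, and of those without a shared peak 54.8%. Head-to-head windows overlap, so their matches are counted for both genes.

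Genes that regulate or handle histones had shared peaks within 10 kb in 17 of 20 cases for regulators of histone genes, 9 of 11 for replacement variants and 18 of 22 for chaperones, beside the background of 64.5%. H1f0 and H1f10 are in both the variant list and the members. Each pair of folds below is of a single shared peak with its distance from the gene, and whether another gene lay nearer is not given. Some of these genes had more shared peaks within 10 kb: Hinfp had 2, Slbp 3, H2ax 4 and Hira 3. Among regulators, Hinfp, which binds H4 promoters, had 58.5-fold and 16.1-fold at 5564 bp. The cyclin gene Ccne2 had 49.3-fold and 20.4-fold inside the gene. Slbp, which binds the stem-loop, had 20.8-fold and 6.67-fold at 5324 bp. Npat, the coactivator of histone genes, had a peak in repeat 2 only, Zfp473 in repeat 1 only, and Yy1 none. Among variants, H3f3b had 86.5-fold and 52.5-fold at 4665 bp, and H3f3a had 61.2-fold and 40.03-fold at 8220 bp. H2ax had 55.6-fold and 33.4-fold at 1054 bp, while H2az1 had a peak in repeat 1 only. Among chaperones, Cabin1 had 8 shared peaks, with 94.2-fold and 67.9-fold inside the gene. Hira had 37.7-fold and 21.6-fold at 76 bp. Ubn1 had no peak of either repeat, and Ubn2, Supt6 and Atrx had no shared one.

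Other histone genes carry symbols outside the rule. On chromosome 11, H2aw had a shared peak inside the gene (14.3-fold and 6.67-fold), H2bu2 one at 5145 bp (42.0-fold and 34.1-fold) and H3f4 one at 8702 bp (47.3-fold and 60.8-fold). H4f16 on chromosome 6 had one at 8880 bp (22.2-fold and 13.2-fold). These genes were listed after the gene table had been seen.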

How the data were processed

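ChIP and input libraries of 2 repeats were analysed from the authors' 2 peak lists, 1 per repeat and not pooled. Per the file headers, MACS 1.4.1 called peaks at a p-value threshold of 1e-05 with tags of 35 bp and at most 2 duplicate tags per position. Tags per peak are deposited as raw counts; the deposited fold is a ratio to local background; the deposited score is 10 times -log10 of the p-value; the deposited FDR is in percent. CASAVA 1.8.2 and mm9 are named in the submitters' processing notes; the sources used here name no aligner. Positions are nevertheless those of GRCm38: chromosome Y peaks reach 90.8 Mb, and shared summits lay within 250 bp of 2722 of 20063 gene starts, against 321 when starts were shifted by 20 kb. Genes and promoters came from RefSeq, GRCm38.p6; 62 of 67 members matched a promoter.

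Overlaps, distances, exact binomial intervals (95%, counting error only) and motif searches used Python 3.11.15, pandas 2.3.3 and SciPy 1.17.1, tested on simulated peaks. Members, lists and windows were chosen with earlier results of these data known. Named genes were all members with a shared peak or a peak of 1 repeat, members without a peak by block, and genes of 3 lists. Alternatives were other overlaps, thresholds and distances, each repeat alone, and other member sets.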

Additional observations from a re-analysis of the deposited data

How the results depend on the processing

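The count of 50 members with a shared peak within 10 kb stayed within 1.5 times in 11 of 14 alternatives, and so did the 31 shared peaks. With 10-fold enrichment required in both repeats, 29 of 67 members (background 50%) and 17 peaks remained. With a score of at least 100 in both, 34 of 67 members (55%) and 21 peaks remained. With an FDR of 0 percent in both, 7 of 67 members (25%) and 2 peaks remained. MACS gave the strongest peaks of repeat 2 an FDR above 0, such as 0.04% beside H1f2, so the FDR filter drops them. Under each of these filters the members' share was below the background, whereas at 20-fold it was 32.8% beside 30.4%. Within 1 kb there were 29 members, and within 50 kb 61 peaks. Leaving out each repeat in turn gave 55 to 56 members and 37 to 45 peaks. The median over shared peaks of the mean fold of both repeats was 13.8, and the peaks of repeat 2 alone and of repeat 1 alone, shared or not, had medians of 11.1 and 11.1. Without the H1f genes that are not replication-dependent, 49 of 63 members had a shared peak. An alternative chosen after seeing the data left out the 9 members with a mostly copied promoter window and gave 41 of 58 members and 24 peaks.

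No paired analysis was possible because each peak list already combines 1 ChIP library with its input. A peak in 1 repeat alone does not show that the repeats differ there.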

Other observations

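The 14 bases at the H4c17 and H4c18 starts, at 1 mismatch or fewer on either strand, were in 17 of 21263 protein-coding promoter windows (0.08%). Besides H4c9, H4c17 and H4c18 these belonged to 14 windows of other genes, and a shared peak overlapped 7 of the 14 (50%), beside 23.7% of all windows. In Tmem185b and Arrdc1 the window also held a shared summit. Windows of Nusap1, Ehhadh, Atg3, Slc35a5, Rnase13, Mab21l3 and Vmn1r32 held the bases without a shared peak. These genes were listed after the histone peaks were known, and no test was made.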
